A study of Mus musculus with 9 samples.

Results

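The livers of mice given a fasting-mimicking diet (FMD) were compared directly with the livers of intermittently fasted (IF) mice. The comparison used 6 of the 9 liver RNA-seq libraries of the study and the 4715 of 5608 listed genes whose mean over these 6 libraries was at least 1 TPM (transcript abundance per length, scaled to the same total in each library). All mice carried the wt genotype and were, by the study's methods, of the C57BL/6 J strain, and their age was not given in the sources used here. FED mice ate the standard diet ad libitum. IF mice had food withheld for 24 h, 2 times a week, with free feeding in between, and FMD mice received the commercial FMD for 3 days, at a reduced calorie intake that was cut further after the first day. The FMD is richer in fat and poorer in protein than the standard diet. RNA came from 3 mice per group by the methods, and each group had 3 libraries. Their labels run 1, 2, 3 for the FED and the IF group and 1, 2, 4 for the FMD group. FED libraries were used to tell which diet had moved a gene. They also entered a second fit of all 9 libraries, whose calls are given beside the main ones.

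A liver without food stops making new fat, burns the fatty acids that arrive from adipose tissue and releases glucose and ketone bodies. Low insulin, glucagon, glucocorticoids and the nuclear receptor PPARα drive most of that switch, and it is known from many forms of food restriction. A fasting-mimicking diet differs from a plain fast in that some food keeps coming, with its own fat and little protein. Amino acid shortage, heat-damaged or misfolded protein and growth signals are each read out by dedicated gene sets, namely the integrated stress response, the chaperones and the immediate early genes.

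Values are scaled TPM, that is, TPM divided by a factor that brings the median gene of every library to a common level. Without scaling, the median gene was higher in FMD by 0.24 on the log2 scale. The factors were 0.875 to 0.938 in IF, 0.988 to 1.29 in FMD, with FMD 1 at 1.29, and 0.736 to 0.764 in FED. The table holds part of each library, between 26.3% and 43.0% of the TPM that a whole library sums to, so sequencing depth is unknown and counting error cannot be given. FMD libraries differed more among themselves than IF libraries did. Distances over all genes on the log2 scale were 24.7 to 33.9 between FMD libraries and 14.5 to 15.0 between IF libraries, while IF and FMD libraries stood 21.7 to 39.3 apart. None of the 18 hepatocyte markers on the list used is among the listed genes, so the tissue label was not checked against them.

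The direct comparison of the diets called 18 genes, which is 0.382% of the 4715 genes tested. A gene counted as such at a limma adjusted p (Benjamini-Hochberg) under 0.05 and a difference over 1.5-fold in either direction. Higher in FMD were 6 genes (0.127%) and lower in FMD were 12 (0.255%). At an unadjusted p under 0.05 there were 876 genes (18.6%). The 3 FMD libraries lay above all 3 IF libraries at 626 genes (13.3%) and below all 3 at 619 genes (13.1%). When the FED libraries entered the same fit and helped to estimate the spread, 111 genes (2.35%) were called, 57 higher (1.21%) and 54 lower (1.15%) in FMD, the 18 genes among them. FED libraries stood 13.4 to 18.9 apart, closer than the FMD libraries, and the calls used here are those of the 6 libraries. In every one of the 18 genes the FMD and IF libraries did not overlap.

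**Figure D1:**
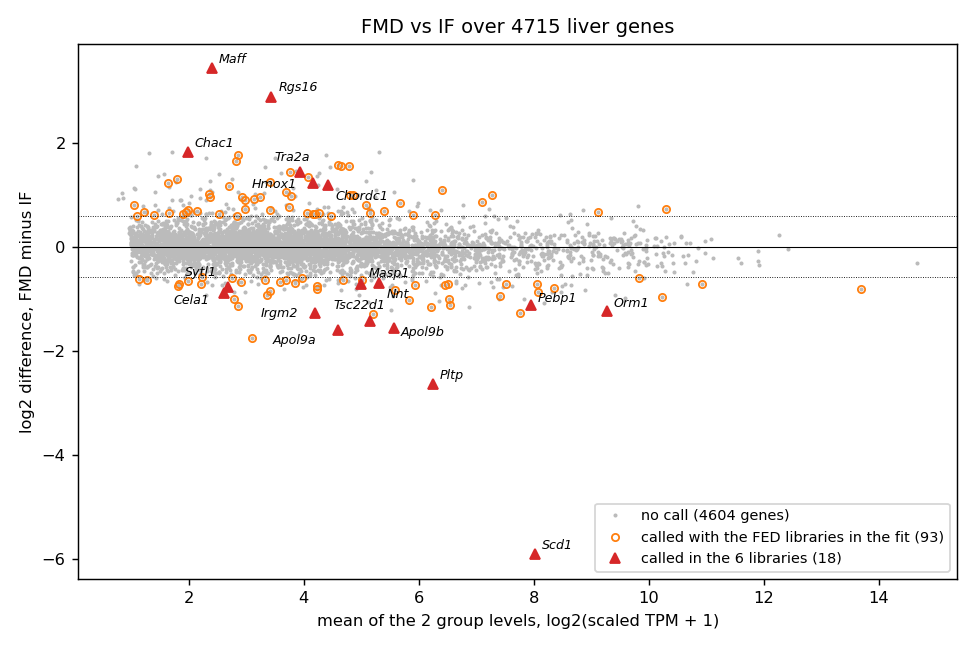
Log2 difference between FMD and IF livers (vertical axis) against the mean of the 2 group levels on the log2(scaled TPM + 1) scale (horizontal axis), 1 point per gene. Red triangles are the 18 genes called in the 6 libraries, open orange circles the further genes called when the FED libraries are in the fit, and dotted lines the limit of 1.5-fold. Scd1 at -5.92 and Maff at 3.43 lie farthest from the other genes.

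Scd1 (NCBI gene 20249), stearoyl-CoA desaturase 1, which turns saturated into monounsaturated fatty acids, fell furthest. Its level was 1662, 2585 and 1717 scaled TPM in IF 1, 2 and 3, and 33.3, 20.2 and 44.9 in FMD 1, 2 and 4. FED livers had 2179, 1572 and 2485. The lowest IF library was thus far above the highest FMD library, and the IF and FED libraries overlapped. The log2 difference was -5.92 (SE 0.29, 95% interval -6.60 to -5.24, adjusted p = 0.00027), a mean 60.6-fold higher in IF than in FMD.

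Pltp (NCBI gene 18830) encodes phospholipid transfer protein, which moves phospholipids between plasma lipoproteins. It read 143, 238 and 179.7 scaled TPM in IF and 22.2, 39.8 and 26.0 in FMD, beside 27.9, 40.9 and 60.5 in FED. The IF libraries stood above all others, while FMD and FED overlapped. The log2 difference between FMD and IF was -2.64 (SE 0.25, adjusted p = 0.011).

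**Figure D2:**
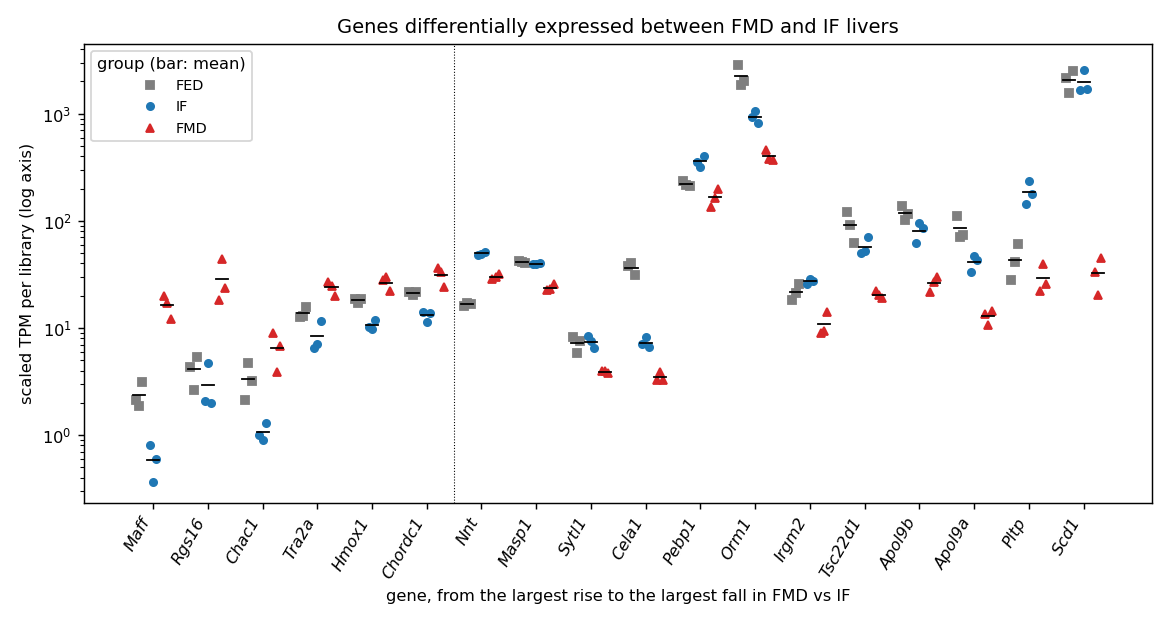
Scaled TPM of the 18 differentially expressed genes in every library (vertical log axis), with FED as squares, IF as circles and FMD as triangles, and a bar at each group mean; genes run from the largest rise (left) to the largest fall (right) in FMD vs IF. At each gene the 3 FMD points lie on 1 side of the 3 IF points, and the FED points of Scd1 lie with IF while those of Pltp reach down to FMD.

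The largest rise was in Maff (NCBI gene 17133), a small Maf transcription factor and early response gene. IF livers had 0.811, 0.367 and 0.594 scaled TPM, FMD livers 20.01, 17.1 and 12.1, and FED livers 2.11, 1.88 and 3.10. All 3 groups were apart from each other, IF lowest and FMD highest. With IF under 1 TPM, the gene passed the filter through FMD and could be called only as higher. FMD was 3.43 above IF on the log2 scale (SE 0.19, 95% interval 2.99 to 3.88, adjusted p = 0.000337), and since the IF values lie under 1 TPM the added pseudocount of 1 makes this difference smaller than that of the TPM themselves, whose means differed 27.8-fold.

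Rgs16 (NCBI gene 19734), which shortens signals from G protein-coupled receptors and responds to feeding state in the liver, read 2.07, 4.68 and 2.01 scaled TPM in IF and 18.3, 43.7 and 23.8 in FMD. FED livers, at 4.35, 2.63 and 5.35, overlapped with IF. The FMD libraries stood above all others and differed among themselves, and the log2 difference was 2.89 (SE 0.35, adjusted p = 0.0216).

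Chac1 (NCBI gene 69065) encodes an enzyme that breaks down glutathione and is a target of ATF4, the transcription factor of the integrated stress response. Its level was 0.992, 0.896 and 1.29 scaled TPM in IF and 8.96, 3.91 and 6.78 in FMD, a log2 difference of 1.82 (SE 0.24, adjusted p = 0.0324). FED livers lay between, at 2.15, 4.66 and 3.19, and FED 2 overlapped with FMD 2. These are low levels: with a filter at a mean of 5 TPM the gene is not tested. Before scaling, the IF mean was under 1 TPM, so the gene passed the filter through FMD and could be called only as higher.

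Hmox1 (NCBI gene 15368), haem oxygenase 1, degrades haem and is induced by oxidative and other stress. It read 10.3, 9.80 and 11.9 scaled TPM in IF, 27.8, 29.8 and 22.1 in FMD and 18.7, 17.2 and 18.7 in FED. FED lay between the diets without touching either, and FMD exceeded IF by 1.23 on the log2 scale (SE 0.14, adjusted p = 0.018).

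Chordc1 (NCBI gene 66917), a co-chaperone that binds HSP90, followed the same order. It was at 14.2, 11.4 and 13.8 scaled TPM in IF, 36.3, 33.5 and 24.2 in FMD and 21.5, 20.4 and 21.5 in FED. The log2 difference between FMD and IF was 1.18 (SE 0.17, adjusted p = 0.0371).

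Tra2a (NCBI gene 101214) encodes a splicing activator of the SR family. It read 6.48, 7.06 and 11.7 scaled TPM in IF, 27.1, 24.9 and 19.8 in FMD and 12.6, 13.0 and 15.7 in FED. Here too FED lay between the diets. The log2 difference was 1.43 (SE 0.21, adjusted p = 0.0463), close to the limit of 0.05, and the call was lost under quantile normalization, without the filter and without the variance trend.

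Promoter windows of RefSeq (build GRCm38.p6, 250 bases before to 50 after a start site) were found for 13 of the 18 genes. Scd1, Hmox1, Orm1, Masp1 and Nnt had no entry. For a gene with several entries, only the one whose start lies farthest 5′ was searched. Among genes higher in FMD, the windows of Chac1, Chordc1 and Tra2a are shown 5′ to 3′. Each holds a short motif of a stress or hormone pathway, and the choice was made after the matches were seen.
Chac1 (chr2:119350992-119351291, plus strand): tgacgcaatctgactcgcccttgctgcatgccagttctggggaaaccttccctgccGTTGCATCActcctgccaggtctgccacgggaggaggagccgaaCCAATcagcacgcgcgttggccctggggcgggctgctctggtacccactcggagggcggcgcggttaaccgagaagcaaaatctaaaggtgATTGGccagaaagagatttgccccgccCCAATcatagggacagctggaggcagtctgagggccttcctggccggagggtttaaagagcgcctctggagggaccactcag
Chordc1 (chr9:18292017-18292316, plus strand): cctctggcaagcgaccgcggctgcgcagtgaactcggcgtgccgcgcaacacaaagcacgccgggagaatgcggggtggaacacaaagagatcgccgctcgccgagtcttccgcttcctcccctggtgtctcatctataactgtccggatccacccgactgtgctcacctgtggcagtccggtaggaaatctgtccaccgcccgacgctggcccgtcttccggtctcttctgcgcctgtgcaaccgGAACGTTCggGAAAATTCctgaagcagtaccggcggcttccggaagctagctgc
Tra2a (chr6:49264003-49264302, minus strand): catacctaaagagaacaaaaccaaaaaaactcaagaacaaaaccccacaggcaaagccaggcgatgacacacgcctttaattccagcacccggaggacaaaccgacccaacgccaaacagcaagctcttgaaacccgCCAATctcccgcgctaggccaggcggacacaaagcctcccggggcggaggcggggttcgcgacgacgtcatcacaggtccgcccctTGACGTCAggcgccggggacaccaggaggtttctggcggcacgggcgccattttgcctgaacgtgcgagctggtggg
Capitals mark motifs searched on both strands. Chac1 holds, on the reverse strand, the amino acid response element TGATGNAAN at position -194 from the start site, besides 3 CCAAT boxes. That element is in 1.73% of the 3863 promoters of tested genes. Chordc1 holds 2 heat shock element cores, GAANNTTC, at positions -4 and 6, a motif present in 4.92% of the promoters of tested genes and also in that of Pebp1, a gene lower in FMD. Tra2a holds the cyclic AMP response element TGACGTCA at position -27, present in 3.83%, and a CCAAT box, present in 39.3%. Of the other genes higher in FMD, the window of Rgs16 held a CCAAT box and that of Maff none of the 8 motifs searched. A match of letters does not show that a factor binds there.

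Among the genes lower in FMD were the paralogs Apol9a (NCBI gene 223672) and Apol9b (NCBI gene 71898), which encode interferon-inducible apolipoprotein L proteins. Apol9a read 33.2, 46.6 and 43.2 scaled TPM in IF, 13.4, 10.8 and 14.4 in FMD and 111, 71.2 and 73.9 in FED. Apol9b read 61.5, 95.2 and 85.3 in IF, 21.7, 27.1 and 30.1 in FMD and 138, 101 and 117 in FED. FED was highest and FMD lowest at both genes, with no overlap between groups. FMD was lower than IF by log2 differences of -1.60 for Apol9a (SE 0.16, adjusted p = 0.0127) and -1.57 for Apol9b (SE 0.19, adjusted p = 0.0216). The pair is near-identical in sequence, as its promoters show below, so reads may have been split between both, and they are not independent results.

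Irgm2 (NCBI gene 54396), an interferon-inducible GTPase that acts against intracellular microbes, read 25.7, 28.6 and 27.3 scaled TPM in IF and 9.05, 9.43 and 14.0 in FMD. FED livers had 18.1, 21.1 and 25.9, so that FED and IF overlapped at the edge and FMD stood below both. The log2 difference was -1.28 (SE 0.16, adjusted p = 0.0285).

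The windows of Apol9a and Irgm2 are shown, by the same kind of choice, because both hold the core of the interferon-stimulated response element, which is GAAA repeated after any 2 bases.
Apol9a (chr15:77411031-77411330, minus strand): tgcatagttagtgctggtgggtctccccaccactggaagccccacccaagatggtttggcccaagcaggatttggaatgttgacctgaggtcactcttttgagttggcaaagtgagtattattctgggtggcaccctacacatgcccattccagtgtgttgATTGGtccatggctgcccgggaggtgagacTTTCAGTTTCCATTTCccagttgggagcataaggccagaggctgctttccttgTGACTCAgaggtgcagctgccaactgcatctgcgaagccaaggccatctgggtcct
Irgm2 (chr11:58214727-58215026, plus strand): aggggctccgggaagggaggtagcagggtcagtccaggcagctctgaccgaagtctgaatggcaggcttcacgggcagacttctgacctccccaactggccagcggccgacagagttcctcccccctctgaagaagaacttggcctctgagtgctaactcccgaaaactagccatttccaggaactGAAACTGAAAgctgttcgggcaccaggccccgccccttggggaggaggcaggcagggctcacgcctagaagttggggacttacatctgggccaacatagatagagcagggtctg
Capitals again mark motif matches. In Apol9a, 2 overlapping copies of the core lie on the reverse strand at positions -59 and -53, beside a CCAAT box and an AP-1 site (TGANTCA). Apol9b has the same sequence over 278 of 278 aligned bases, shifted relative to its annotated start. In Irgm2, 1 copy lies at position -64. The core is in 3.05% of promoters of tested genes and in 3 of the 8 promoters at hand for genes lower in FMD, of which Apol9a and Apol9b share theirs.

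Orm1 (NCBI gene 18405), the acute phase plasma protein orosomucoid 1, read 930.4, 1069.5 and 822 scaled TPM in IF and 454, 374 and 369 in FMD, beside 2862, 1842 and 2033 in FED. The groups did not overlap, with FED highest, and the log2 difference between FMD and IF was -1.23 (SE 0.15, adjusted p = 0.0216). Masp1 (NCBI gene 17174), a serine protease of the lectin pathway of complement, read 39.3, 39.9 and 40.4 in IF, 42.1, 40.9 and 40.3 in FED and 22.5, 22.9 and 26.0 in FMD. IF and FED were nearly level and FMD was lower than IF by a log2 difference of -0.72 (SE 0.10, adjusted p = 0.033).

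The other 5 genes lower in FMD have unrelated roles. Tsc22d1 (NCBI gene 21807), a leucine zipper regulator first found as a TGF-β-stimulated gene, read 49.9, 52.1 and 70.7 scaled TPM in IF and 22.2, 20.1 and 19.0 in FMD, a log2 difference of -1.44 (SE 0.15, adjusted p = 0.0138). FED livers, at 120.2, 92.2 and 62.0, overlapped with IF and lay above FMD. Pebp1 (NCBI gene 23980), the Raf kinase inhibitor protein, read 358, 318 and 407 in IF and 134, 165 and 198 in FMD, a log2 difference of -1.13 (SE 0.17, adjusted p = 0.0463). Its FED values of 237, 216 and 211 lay between the diets. The call was lost under quantile normalization, with a pseudocount of 5 and without the filter.

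Cela1 (NCBI gene 109901), a serine protease of the elastase family, was at 7.09, 8.17 and 6.60 scaled TPM in IF and 3.23, 3.88 and 3.27 in FMD, far below 38.1, 40.3 and 31.2 in FED. The log2 difference between the diets was -0.89 (adjusted p = 0.0319). No marker of pancreatic acinar cells, a tissue that could be cut with the liver, is among the listed genes. Sytl1 (NCBI gene 269589), a Rab27 effector in vesicle transport, read 8.38, 7.48 and 6.46 in IF and 3.95, 3.96 and 3.84 in FMD, a log2 difference of -0.77 (adjusted p = 0.0463).

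Nnt (NCBI gene 18115), the mitochondrial transhydrogenase that supplies NADPH, was the only one of the 18 genes whose FED mean lay below both diets. It read 16.0, 17.2 and 16.8 scaled TPM in FED, 48.3, 49.1 and 51.3 in IF and 28.4, 30.0 and 31.7 in FMD. All groups were apart, and FMD was lower than IF by a log2 difference of -0.70 (adjusted p = 0.033). C57BL/6J stocks are known to carry a deletion inside Nnt, and whether the mice here do was not examined.

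Against FED livers, in the fit of all 9 libraries, 342 of the tested genes (7.25%) differed in IF and 523 (11.1%) in FMD. The 18 genes divided by the diet that had moved them. In 7 genes FMD alone passed the test against FED: Scd1, Apol9b, Tsc22d1, Irgm2, Sytl1 and Masp1 were lower and Rgs16 was higher. In 5 genes IF alone passed: Pltp and Pebp1 rose, and Chordc1, Hmox1 and Chac1 fell. Of these, Hmox1 and Chordc1 also differed from FED in FMD by the p limit alone, at log2 differences of 0.51 (adjusted p = 0.0152) and 0.53 (adjusted p = 0.0294) that missed the 1.5-fold limit. Both comparisons use the same FED libraries. Scd1 differed from FED by -5.99 in FMD and -0.07 in IF (adjusted p = 0.908), and Pltp by 2.13 in IF and -0.51 in FMD (adjusted p = 0.241), all on the log2 scale. Passing against FED in 1 diet and not in the other is not by itself a difference between the diets, which the direct test above gives.

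In 4 genes both diets moved the same way. The log2 difference from FED at Apol9a was -1.03 in IF and -2.62 in FMD. At Orm1 it was -1.24 and -2.47, and at Cela1 -2.18 and -3.07. Nnt rose by 1.52 in IF and by 0.81 in FMD. In the other 2 genes the diets moved apart. Maff fell by 1.07 in IF and rose by 2.36 in FMD, and Tra2a fell by 0.69 in IF and rose by 0.75 in FMD. The FED mean lay between the diets at all 6 genes higher in FMD, and of these only Maff, Rgs16 and Tra2a were called above FED in FMD.

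**Figure D3:**
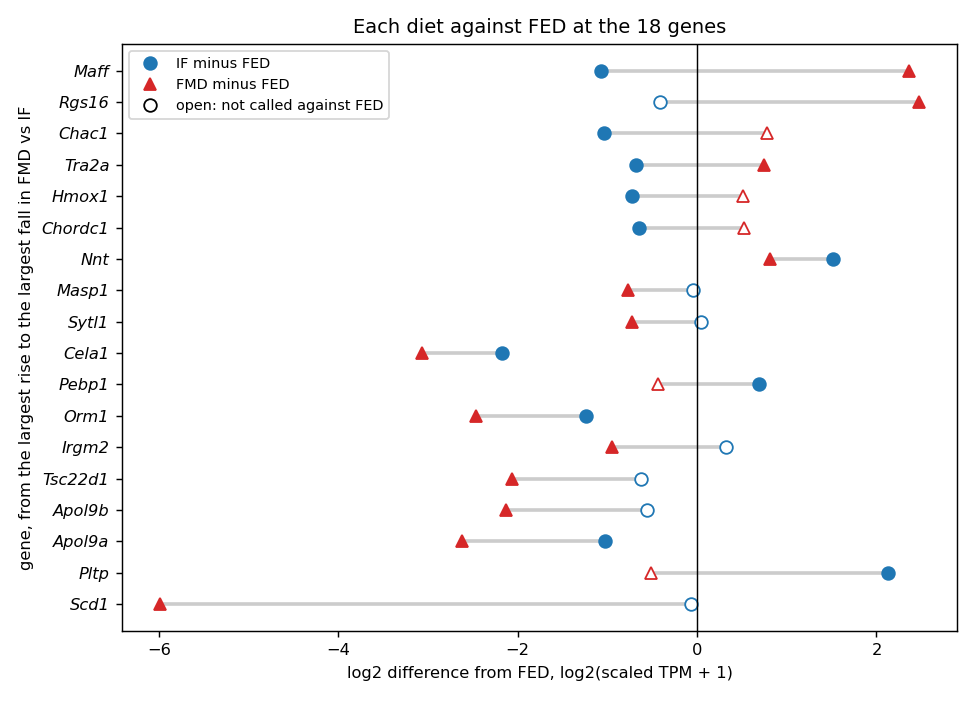
Log2 difference from FED (horizontal axis) of IF (blue circles) and FMD (red triangles) at the 18 genes, with filled symbols where the difference was called and open symbols where it was not. At Maff, Chac1, Tra2a, Hmox1 and Chordc1 the filled IF symbol is left of 0 and FMD is right of it, at Scd1 FMD stands alone at -5.99, and at Pltp IF stands alone at 2.13.

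Gene lists were described by their counts, beside the same counts over all genes tested. Of 619 list members tested over 31 lists, 9 were called, and 39 were called with the FED libraries in the fit. The lists were written with earlier results of these data known, so their counts are no independent evidence. A member with a mean under 1 TPM in 1 diet passed the filter only through the other diet. It could then lie without overlap only on the side where that other diet is higher. Members named below that were not called are given by their values. The list medians stand beside a median of 0.0046 over all genes.

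The immediate early and MAPK feedback list holds transcription factors switched on within minutes of a signal and the phosphatases and adaptors that damp it. Called higher were 2 of 24 members, Maff and Rgs16, and 7 were called with the FED libraries in the fit. At 14 members (58.3%) all FMD libraries lay above all IF libraries and at 1 below, and the median log2 difference was 0.55. Members such as Maff and Fosl1, under 1 TPM in every IF library, passed the filter through FMD and could count only as higher. Without FMD 1 the median was 0.41, and 3 members were called higher and 1 lower. Sik1, a kinase induced by cyclic AMP that restrains the CREB coactivators, read 7.15, 7.46 and 9.12 scaled TPM in IF and 16.8, 13.7 and 22.5 in FMD (log2 difference 1.05, adjusted p = 0.065). Klf10, a zinc finger repressor, read 9.97, 8.69 and 7.495 in IF and 12.8, 22.5 and 20.3 in FMD (0.98, adjusted p = 0.0909).

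Several members were high mainly in FMD 1. Klf6 read 2.38, 2.71 and 1.93 scaled TPM in IF and 16.0, 7.47 and 3.63 in FMD (log2 difference 1.39, adjusted p = 0.155). Fosl1, a Fos family member, is listed at 0 in all IF and FED libraries and at 8.81, 1.40 and 0.0911 in FMD 1, 2 and 4. The feedback genes Spred1 and Spred2, which dampen Ras signalling, were steadier. Spred1 read 1.75, 1.66 and 2.96 in IF and 4.04, 3.60 and 4.46 in FMD (0.71, adjusted p = 0.117), and FED had 3.89, 3.71 and 4.40, overlapping with FMD. Spred2 read 2.06, 2.89 and 2.49 in IF and 4.49, 5.91 and 3.57 in FMD (0.69, adjusted p = 0.121). The wider list of MAPK cascade kinases and adaptors had 0 of 48 members called by limma, with 5 higher and 0 lower at an unadjusted p under 0.05, and its median was -0.03, or 0.22 without scaling.

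In the integrated stress response, the answer to amino acid shortage and other stress that acts through ATF4, 1 of 26 members was called, Chac1. At 11 members (42.3%) all FMD libraries lay above all IF libraries and at 0 below. Members such as Psat1 and Mthfd2, under 1 TPM in every IF library, passed the filter through FMD and could count only as higher. The same held for Chac1, whose IF mean was under 1 TPM before scaling. The median log2 difference was 0.53 with all libraries and 0.13 without FMD 1, where 3 members were called higher and 0 lower. Ddit3, the stress factor CHOP, read 8.54, 7.74 and 8.52 scaled TPM in IF and 93.9, 11.4 and 12.2 in FMD. Trib3, a pseudokinase that restrains ATF4, read 10.3, 9.18 and 8.90 in IF and 65.0, 16.6 and 15.4 in FMD. Psat1, an enzyme of serine synthesis, read 0.565, 0.291 and 0.0800 in IF and 19.3, 1.25 and 1.09 in FMD. At these genes FMD 1 stood far above the other FMD libraries, and none passed the test (adjusted p = 0.314 for Ddit3, 0.206 for Trib3 and 0.268 for Psat1). Atf4 itself differed by 0.16 (adjusted p = 0.665). Cebpb, a transcription factor of fasting and of inflammation, was higher in all FMD libraries, with 95.4, 94.2 and 109.8 in IF and 139, 204 and 216 in FMD (0.87, adjusted p = 0.0883).

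Of 14 heat shock genes tested, 1 was called, Chordc1, and at 6 (42.9%) all FMD libraries lay above all IF libraries and at 0 below. Hspa8, the constitutive HSP70, read 933, 897 and 1068 scaled TPM in IF and 1816, 1863 and 1213 in FMD (log2 difference 0.73, adjusted p = 0.126). Hsp90ab1, the constitutive HSP90, read 515, 523 and 569 in IF and 804, 861 and 703 in FMD (0.56, adjusted p = 0.0983). The heat shock list had a median of 0.29 with all libraries and 0.32 without FMD 1.

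Of 36 genes of protein folding in the endoplasmic reticulum, 0 were called by limma, with 12 higher and 0 lower at an unadjusted p under 0.05 and 2 higher with the FED libraries in the fit. At 12 (33.3%) FMD lay above IF without overlap and at 0 below, with a median of 0.31. Dnajb9, a co-chaperone of BiP, read 49.1, 45.2 and 46.6 scaled TPM in IF, 81.6, 60.8 and 76.8 in FMD and 65.7, 61.8 and 55.0 in FED (0.62, adjusted p = 0.0928). Eif2ak3, the stress sensor PERK, read 4.84, 3.97 and 5.19 in IF, 13.5, 7.72 and 8.31 in FMD and 7.66, 6.05 and 6.19 in FED (0.91, adjusted p = 0.0983). At both genes FED lay mostly between the diets, and the list's median against FED was -0.48 in IF and -0.22 in FMD.

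Cytoskeleton and injury response genes, which rise when epithelial cells are stretched or regenerate, had 0 of 28 members called by limma, 10 higher and 1 lower at an unadjusted p under 0.05, and 3 called higher without FMD 1. At 9 (32.1%) FMD lay above IF without overlap and at 1 below. The median log2 difference was 0.54 with all libraries and 0.29 without FMD 1. Tnfrsf12a, the receptor of the cytokine TWEAK, read 16.7, 18.2 and 17.9 scaled TPM in IF and 168, 47.3 and 34.3 in FMD (1.83, adjusted p = 0.138). Tpm4, a tropomyosin, read 9.23, 9.42 and 9.13 in IF and 37.7, 24.8 and 16.7 in FMD (1.35, adjusted p = 0.0804). All FMD libraries were above IF at both, with FMD 1 highest.

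On the list of hypoxia-inducible factor targets, 1 of 29 was called, Hmox1, and 4 with the FED libraries in the fit. The list also holds members of the wider pathway, such as Arnt, Vhl and Mknk2. FMD lay above IF without overlap at 9 (31.0%) and below at 0, with a median of 0.13, or 0.06 without FMD 2 and 0.24 without FMD 4. Aldoa, aldolase A of glycolysis, read 106, 111 and 107 scaled TPM in IF, 249, 249.8 and 164 in FMD and 109, 109.5 and 103 in FED (log2 difference 1.003, adjusted p = 0.065). Mknk2, a kinase of the translation factor eIF4E, read 61.5, 51.2 and 56.9 in IF and 126, 152 and 94.6 in FMD (1.10, adjusted p = 0.0574). IF and FED were alike in level at Aldoa and FMD was higher in every library. Of 27 genes of oxidative stress and metallothioneins 1 was called, again Hmox1, and the median was 0.02.

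**Figure D4:**
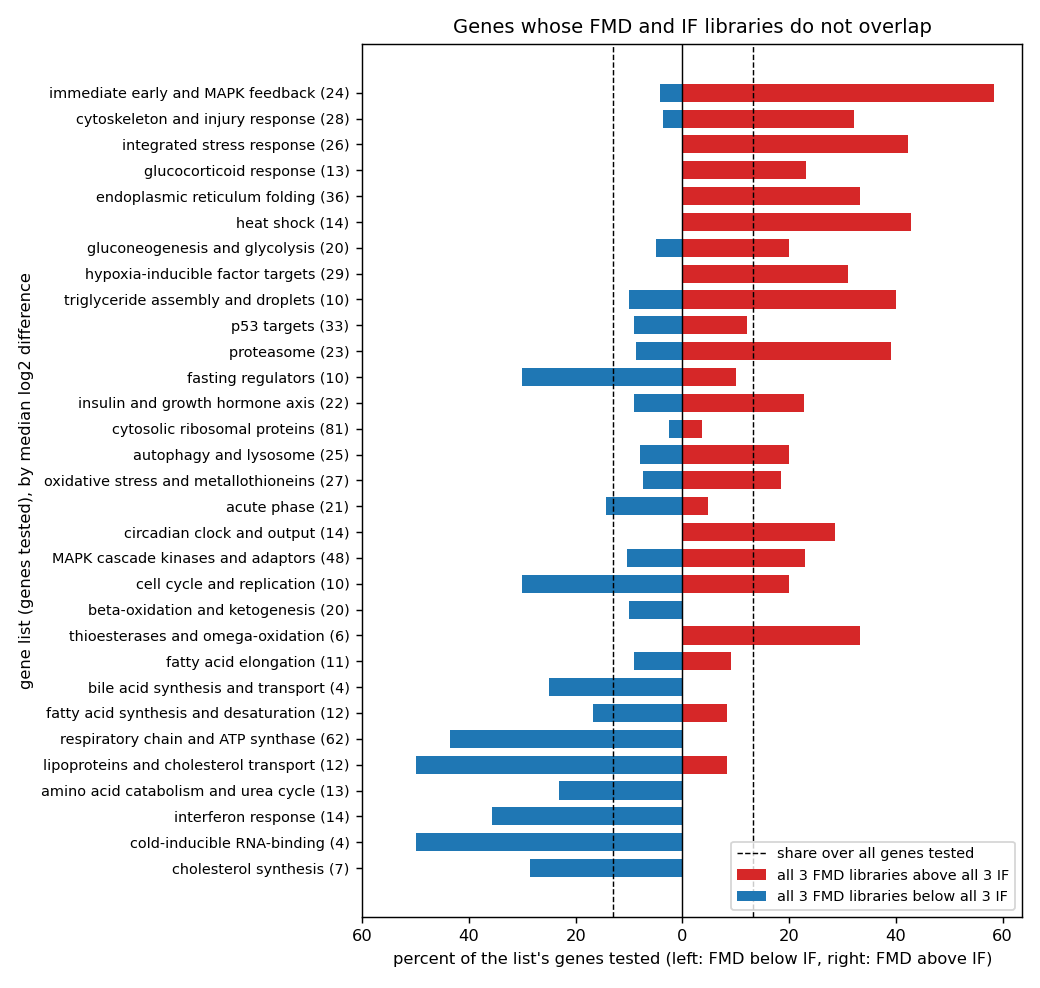
Share of each gene list's tested members (in percent, number tested in brackets) at which all 3 FMD libraries lay above (red, right) or below (blue, left) all 3 IF libraries, with lists ordered by median log2 difference. Dashed lines give the share over all 4715 genes, 13.3% above and 13.1% below; immediate early genes reach 58.3% on the right, and lipoprotein genes, with 6 of 12, reach furthest left together with cold-inducible genes.

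Interferon response genes were on the lower side. Of 14 tested, 1 was called, Irgm2, and 3 were called lower with the FED libraries in the fit. FMD lay below IF without overlap at 5 (35.7%) and above at 0, with a median of -0.41, or -0.39 without FMD 1. Irf9, the DNA-binding part of the interferon-activated complex, read 20.1, 26.4 and 25.2 scaled TPM in IF and 13.1, 14.2 and 12.02 in FMD (log2 difference -0.81, adjusted p = 0.0574). B2m, the shared chain of MHC class I, read 2456, 2409 and 2527 in IF and 1149.5, 1696 and 1729 in FMD (-0.72, adjusted p = 0.121). The summed level of the list, most of which was B2m, was 2826 to 2969 in IF and 1481 to 2054 in FMD. Of the 14 differences 4 were above 0 and 10 below. Of 20 lymphocyte markers 1 was tested, at 40.2 to 52.96 in IF and 28.8 to 57.7 in FMD, and the part of immune cells in the result was not tested.

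Of 21 acute phase genes 1 was called, Orm1, and the median was -0.01. C4b, complement component 4, read 346, 382 and 352 scaled TPM in IF and 148, 234 and 217 in FMD (-0.87, adjusted p = 0.0883). Of the 21 differences 10 were above 0 and 11 below, and without scaling the median was 0.25.

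Of 12 genes of lipoproteins and cholesterol transport 1 was called, Pltp. FMD lay below IF without overlap at 6 and above at 1, with a median of -0.29, which without scaling was -0.03. The 4 cold-inducible RNA-binding genes tested held 0 calls by limma, 2 at an unadjusted p under 0.05 and 2 called with the FED libraries in the fit, all lower. Cirbp, the cold-inducible RNA-binding protein, read 64.8, 65.3 and 40.8 scaled TPM in IF, 17.7, 22.4 and 27.3 in FMD and 23.7, 15.9 and 21.8 in FED (-1.29, adjusted p = 0.065). Srsf5, a splicing factor, read 205, 272 and 217 in IF, 119, 125 and 180.2 in FMD and 122, 131 and 139.9 in FED. At both genes IF stood above FED and FMD lay at or near it.

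Respiratory chain and ATP synthase genes, the core of oxidative phosphorylation, differed little one by one. By limma 0 of 62 were called, with 11 lower and 0 higher at an unadjusted p under 0.05. FMD lay below IF without overlap at 27 (43.5%) and above at 0, and 60 of the 62 differences were below 0, with a median of -0.17. Without scaling the median was 0.09, where the median gene stood at 0.24, and FMD lay below IF without overlap at 3 members and above at 3, beside 3.03% of all genes below and 33.5% above. Uqcr11, a subunit of complex III, read 1079, 1111 and 1156 scaled TPM in IF and 663, 807 and 757 in FMD (-0.59, adjusted p = 0.0909). The cytosolic ribosomal proteins, for comparison, had 0 of 81 called, 1 higher at an unadjusted p under 0.05, and a median of 0.08, or -0.04 without FMD 1, and the proteasome had 0 of 23 called, 1 higher and 1 lower at an unadjusted p under 0.05, with a median of 0.11 and FMD above IF without overlap at 9 (39.1%).

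Scd1 was the only gene of fatty acid synthesis and desaturation called among 12 tested, and the median of the list was -0.14, or 0.12 without scaling. Fasn, fatty acid synthase, read 18.6, 16.2 and 22.0 scaled TPM in IF and 8.49, 18.4 and 27.3 in FMD, against 76.1, 36.6 and 78.5 in FED. The diets overlapped, with a log2 difference of -0.19 (95% interval -1.01 to 0.63, adjusted p = 0.795). Acss2, which makes acetyl-CoA from acetate, read 66.3, 69.5 and 60.8 in IF and 24.4, 56.8 and 47.0 in FMD (-0.69, adjusted p = 0.244). Srebf1, the gene of the lipogenic factor SREBP1, read 20.2, 26.4 and 26.9 in IF and 13.3, 10.6 and 24.5 in FMD (-0.65, adjusted p = 0.264). Fasn, Acss2 and Srebf1 were called below FED in both diets. Fads2, the delta-6 desaturase of polyunsaturated fatty acids, was on the other side, with 305, 332 and 353 in IF and 363, 575 and 494 in FMD (0.51, adjusted p = 0.203).

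Of 7 genes of cholesterol synthesis 0 were called by limma, with 3 lower at an unadjusted p under 0.05 and 0 called with the FED libraries in the fit. Their median was -0.63 with all libraries, -0.09 without FMD 1 and -1.13 without FMD 4. Hmgcs1, an early enzyme of the pathway, read 90.1, 96.7 and 147 scaled TPM in IF and 29.5, 57.4 and 85.4 in FMD (-1.03, adjusted p = 0.205).

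Genes of fatty acid burning gave no call between the diets. In beta-oxidation and ketogenesis 0 of 20 were called by limma, 1 higher and 1 lower at an unadjusted p under 0.05, and the median was -0.09, or 0.06 without FMD 1, -0.32 without FMD 2 and 0.17 without scaling. Cpt1a, which controls the entry of fatty acids into mitochondria, read 282, 301 and 269 scaled TPM in IF and 286, 468 and 261 in FMD, above 89.9, 129.7 and 121 in FED. The log2 difference between the diets was 0.20 (95% interval -0.29 to 0.70, adjusted p = 0.633). Hadha, a subunit of the trifunctional protein of beta-oxidation, differed by 0.06 (95% interval -0.26 to 0.37, adjusted p = 0.847), and Gk, glycerol kinase, by 0.00 (95% interval -0.28 to 0.28, adjusted p = 0.999). These 3 genes were called above FED in both diets. Cpt2, the inner membrane partner of Cpt1a, differed by -0.16 between the diets (adjusted p = 0.627) and Pcx, pyruvate carboxylase of gluconeogenesis, by -0.34 (adjusted p = 0.489), with 327, 347 and 317 scaled TPM in IF and 178, 386 and 256 in FMD.

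Acot2, a mitochondrial acyl-CoA thioesterase that answers to PPARα, was apart from them. It read 16.5, 11.8 and 15.8 scaled TPM in IF and 68.6, 43.5 and 29.8 in FMD, with 0.720, 2.10 and 0.811 in FED. All groups were separate, and the difference between the diets of 1.55 missed the limit (adjusted p = 0.0804) and was called with the FED libraries in the fit. Hilpda, a lipid droplet protein that inhibits lipolysis, was highest in FMD 1 and read 4.60, 4.06 and 4.42 in IF and 30.5, 16.3 and 5.80 in FMD (1.53, adjusted p = 0.163).

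The remaining metabolic lists gave 0 calls by limma. Amino acid catabolism and the urea cycle had 13 members tested, with 4 lower and 0 higher at an unadjusted p under 0.05 and a median of -0.36, which was -0.64 without FMD 2, -0.23 without FMD 1 and -0.10 without scaling. Triglyceride assembly and droplet genes had 10, with 4 higher and 1 lower at that limit and a median of 0.13, and gluconeogenesis and glycolysis had 20, with 2 higher and 1 lower and a median of 0.14. Glucocorticoid response genes had 13, with 4 higher and 0 lower and a median of 0.49, or 0.21 without FMD 1. Fatty acid elongation, thioesterases and omega-oxidation, fasting regulators, the clock, the insulin and growth hormone axis, bile acids, the cell cycle and autophagy had medians between -0.12 and 0.11, and between -0.25 and 0.22 with any 1 library left out.

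Hsd3b7, an enzyme of bile acid synthesis, read 439, 382 and 460.2 scaled TPM in IF, 193, 262 and 289 in FMD and 666, 621 and 596 in FED (log2 difference -0.80, adjusted p = 0.0928). Sqstm1, the autophagy receptor p62, read 432, 438 and 430.4 in IF, 882, 622 and 591 in FMD and 451, 430.0 and 424 in FED (0.66, adjusted p = 0.121). Eif4ebp1, the brake on cap-dependent translation that mTOR releases, read 59.8, 62.5 and 67.1 in IF and 146, 80.9 and 94.5 in FMD (0.71, adjusted p = 0.154). The FMD libraries lay apart from IF at each of the 3 genes, and Hsd3b7 and Sqstm1 were called with the FED libraries in the fit.

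Targets of p53, the tumour suppressor that answers to DNA damage and nutrient stress, had 0 of 33 called by limma. At an unadjusted p under 0.05 there were 4 higher and 3 lower, near the 18.6% of all genes in either direction. The median was 0.12. Cdkn1a, the cell cycle inhibitor p21, read 17.2, 16.5 and 14.1 scaled TPM in IF and 143, 47.2 and 8.79 in FMD. FMD 1 was far above and FMD 4 below every IF library, so the difference of 1.27 had an interval of -0.62 to 3.17 (adjusted p = 0.427). Gadd45b, a stress-induced regulator of growth arrest, read 8.33, 7.36 and 5.58 in IF and 15.2, 30.6 and 19.0 in FMD (1.44, adjusted p = 0.065). Bax, which opens the mitochondrial membrane in apoptosis, read 29.5, 27.4 and 31.7 in IF and 74.3, 26.4 and 39.2 in FMD (0.52, adjusted p = 0.414). Tigar, a p53 target that lowers glycolysis, differed by -0.08 (adjusted p = 0.768).

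FMD 1 stood apart from the other FMD libraries at several of these genes, and markers of cell types were read beside it. Cd68, a macrophage marker, was at 49.7 scaled TPM in FMD 1, 11.7 in FMD 2 and 5.82 in FMD 4, against 5.56, 3.39 and 6.84 in IF. It was 1 of 2 Kupffer cell and macrophage markers tested of 17 on the list. The other, Slc40a1, went the other way in FMD 1. It read 36.3, 32.1 and 77.7 in FMD 1, 2 and 4, against 61.3, 68.6 and 76.6 in IF. The summed level of both was 66.8 to 83.4 in IF and 43.8 to 86.0 in FMD. Glul, glutamine synthetase of the hepatocytes around the central vein, was at 125 in FMD 1, 487 in FMD 2 and 541 in FMD 4, against 687, 476 and 581 in IF. The 3 pericentral markers tested, most of whose sum was Glul, summed to 133 in FMD 1, up to 550 in FMD, and to 491 to 702 in IF. Of 17 stellate cell and fibroblast markers 6 were tested, and their summed level was 279 to 362 in IF and 215 to 304 in FMD. Gas1, one of them, was at 13.4, 13.4 and 15.1 in IF and 1.39, 3.73 and 6.55 in FMD (-1.76, adjusted p = 0.0883). Gas1 was called lower with the FED libraries in the fit, as was Ahr among the pericentral markers, and no marker was called in the 6 libraries. Of 17 endothelial markers 2 were tested, of 14 periportal markers 4 and of 11 cholangiocyte markers 1, while 2 of 12 neutrophil markers were listed, neither reaching a mean of 1 TPM. Periportal markers summed to 4961 to 8009 in IF and 4277 to 7460 in FMD. The part of cell composition in the results was not tested, and in bulk liver fewer cells of a type and less RNA per cell cannot be told apart.

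Leaving out libraries changed the number of genes called, while the direction of all 18 genes was kept in every such fit. Without IF 1, IF 2 or IF 3 there were 6, 4 and 6 calls, and without FMD 2 there were 7. Without FMD 1 there were 44 calls, 22 in each direction, and without FMD 4 there were 249, with 123 higher and 126 lower. Of the 18 genes, 17 were still called without FMD 1, the exception being Tra2a, and 18 without FMD 4. Only 6, 4 and 5 of them were still called without IF 1, IF 2 and IF 3, and 5 without FMD 2. Maff, Pltp and Scd1 were called in all 6 fits.

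**Figure D5:**
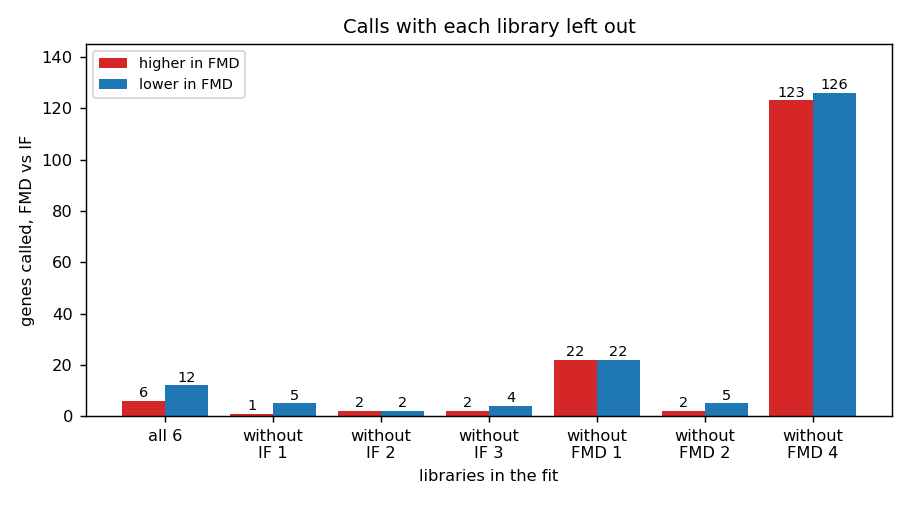
Number of genes called between FMD and IF livers (vertical axis) with all 6 libraries and with each library left out in turn (horizontal axis), in red higher and in blue lower in FMD. The count is 6 higher and 12 lower with all libraries, between 1 and 5 per direction without an IF library or FMD 2, and 123 and 126 without FMD 4.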

How the data were processed

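Liver RNA of FED, IF and FMD mice was sequenced as strand-specific, oligo-dT enriched libraries (DNBSEQ). The authors deposited TPM with 2 decimals for 5608 genes, and the submitters' notes name the build mm39. The aligner and counter are not given in the sources used here. Columns were assigned to samples by their names. TPM of the 6 IF and FMD libraries were scaled by the median ratio to their geometric mean library, and log2(TPM + 1) was fitted with limma 3.58.1 (R 4.3.3, trend, Benjamini-Hochberg). Fold changes on this scale understate those of low genes. A gene was called at an adjusted p under 0.05 and a difference over 1.5-fold, the limits of the study's methods. Genes under a mean TPM of 1 over the 6 libraries were left out. FED entered a second fit of all 9 libraries.

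Depth is unknown, so precision rests on 3 libraries a group. The methods give 3 mice per group and the labels do not tie libraries to animals, so p-values measure the spread between these samples. The fit was tested on simulated data with the same spread in both diets. In the real data FMD libraries differed more than IF libraries, which the simulation did not cover. Members, lists and rules were chosen with earlier results of these data known. Named were up to 12 non-overlapping calls each way, up to 4 called members of a list (or 2 with the smallest p where none was called), a set of genes the study assayed and markers. All other named genes, such as Klf6, Ddit3, Trib3, Psat1, Fosl1, Spred1, Spred2, Srebf1, Fads2, Tnfrsf12a and Atf4, were chosen after their values were seen. Alternatives were other scalings, pseudocounts, filters, fits and left-out libraries. Promoter windows came from RefSeq (GRCm38.p6), whose coordinates were not mixed with mm39.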

Additional observations from a re-analysis of the deposited data

Results flagged for a closer look

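In the fit of all 9 libraries, 2 of the 18 genes had IF and FMD pass the test against FED in opposite directions, and the direct test between the diets gave the difference itself. Maff was -1.07 from FED in IF and 2.36 in FMD, and the diets differed by 3.43 on the log2 scale. Tra2a was -0.69 from FED in IF and 0.75 in FMD, and the diets differed by 1.43. Both comparisons share the FED libraries.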

How the results depend on the processing

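All 18 genes kept their direction under every alternative that tested them, while the number of calls moved. Without scaling 24 genes were called, 17 higher and 7 lower, and Cela1, Masp1, Nnt, Orm1 and Sytl1 were no longer called. There, FMD lay above IF without overlap at 33.5% of genes and below at 3.03%. Without a filter, where 5548 genes were tested, 11 were called, 3 of them higher, without Tra2a, Cela1, Pebp1, Sytl1, Irgm2, Chordc1 and Chac1, and a pseudocount of 5 lost Cela1, Pebp1, Sytl1 and Chac1. All 9 libraries in 1 fit gave 111 calls, 57 higher and 54 lower, with 39 list members, and weighting libraries by their spread gave 70, 36 higher and 34 lower. At an adjusted p under 0.01 there were 2 calls, 1 higher and 1 lower. Leaving out a library gave 4 to 249 calls, 1 to 123 higher and 2 to 126 lower, with 3 to 67 list members. The causes were not tested.

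Replicate numbers 1 and 2 are shared by IF and FMD, and the labels do not say that they mark a litter, batch or day. Deviations from the group means correlated at 0.116 for number 1 and 0.157 for number 2, at 0.219 between IF 3 and FMD 4, and between -0.199 and 0.0377 in the other pairs. With only 2 shared numbers, these values do not settle whether the libraries were paired. In a replicate block of the 6 libraries, IF 3 and FMD 4 each stand alone in their number. That fit therefore compares the diets through numbers 1 and 2 only. It called 143 genes, 98 higher and 45 lower, without Masp1, Nnt and Orm1. With the block in all 9 libraries, FMD 4 still stands alone and adds nothing to the difference. There, 328 genes were called, 182 higher and 146 lower. Leaving out FMD 4 with no block gave 249 calls.

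Of the 18 genes called between the diets, without scaling 3 were also called against FED in IF alone, 1 in both diets in opposite directions and 2 in neither. With the replicate block these were 2, 4 and 1. Without 1 library, IF alone had 2 to 6, opposite 1 to 4 and neither 0 to 3.

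Among genes not called, Gk was -0.0049 without a filter and -0.108 to 0.0587 with a library left out, Hadha -0.0696 to 0.151, Cpt1a -0.0575 to 0.364 and Fasn -0.547 to 0.241. Without scaling Fasn was 0.0571, Cpt2 0.102 and Tigar 0.127. Depth is unknown.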
